A study of Mus musculus with 6 samples.

Results

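The genes described here are 6 secreted modulators of Wnt signalling, Sfrp1, Sfrp2, Sfrp4, Frzb, Wif1 and Dkk3, in mouse skin exposed to a cytokine from a subcutaneous pump. They were taken by name, as every probe set whose platform annotation names only 1 of these genes. That gave 11 probe sets and 6 of the 12393 genes measured. The genes were chosen by their differences from PBS skin at the pump outlet on these arrays, where Sfrp2 was high under the cytokines, so their own values are a description and carry no test.

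All mice were C57BL/6, and each carried a pump that delivered its content into the skin for 7 days. RNA of skin at the pump outlet was measured under IL-13 (1 array), TSLP (1 array), TGF-beta (2 arrays, from mouse 1 and mouse 2) and PBS (1 array, PBS local), and PBS-treated animals also gave abdominal skin distant from the outlet (1 array, PBS distal). The labels name neither the isoform of TGF-beta nor a dose, and they give no animal for either PBS array. IL-13 is made by type 2 helper T cells and innate lymphoid cells, TSLP by epithelial cells such as keratinocytes, and TGF-beta is the growth factor best known for driving fibroblasts to make matrix.

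Wnt proteins are secreted ligands that bind Frizzled receptors and LRP co-receptors, and in the canonical branch they stabilise beta-catenin, which drives target genes with TCF/LEF factors. The secreted Frizzled-related proteins (Sfrp1, Sfrp2, Sfrp4 and Frzb, which is also called Sfrp3) carry a cysteine-rich domain like that of the receptors and bind Wnt ligands outside the cell. Wif1 binds Wnt ligands through a different domain, and Dkk3 is a divergent member of the Dickkopf family. In skin, Wnt signalling is known for the growth cycle of the hair follicle and for the behaviour of dermal fibroblasts.

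The promoters of Sfrp2 and Wif1 are shown because these genes had the largest spans over the arrays among the 6 genes, Sfrp2 between the cytokine and PBS arrays and Wif1 between the TGF-beta mice. The 250 bases before the annotated start are given 5′ to 3′, from RefSeq, build GRCm38.p6. That table held 3 of the 6 genes, namely Sfrp2, Wif1 and Frzb. Capitals mark matches on either strand to any of 5 motifs that were searched. CAGACA stands for the element bound by SMAD proteins, which act below TGF-beta. ATCAAAG stands for the TCF/LEF site of the canonical Wnt branch. TTCNNNNGAA is the spacing preferred by STAT6, which acts below IL-13, and TTCNNNGAA is that of other STAT factors, among them STAT5 below TSLP. TATAAA stands for the TATA box.
Sfrp2, chr3:83766071-83766320, plus strand: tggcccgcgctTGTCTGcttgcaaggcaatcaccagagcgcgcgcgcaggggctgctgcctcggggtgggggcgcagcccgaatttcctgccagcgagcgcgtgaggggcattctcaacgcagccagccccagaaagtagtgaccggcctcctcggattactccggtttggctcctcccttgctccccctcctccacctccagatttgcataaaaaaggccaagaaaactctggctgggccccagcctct
Wif1, chr10:121033754-121034003, plus strand: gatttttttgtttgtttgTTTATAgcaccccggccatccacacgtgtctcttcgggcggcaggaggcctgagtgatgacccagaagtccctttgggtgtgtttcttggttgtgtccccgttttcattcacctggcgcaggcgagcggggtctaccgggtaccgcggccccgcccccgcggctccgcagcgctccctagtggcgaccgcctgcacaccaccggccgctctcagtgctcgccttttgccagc
The Sfrp2 window held 1 match to CAGACA, on the reverse strand, and no other motif match. Of 32851 promoter windows of that length, 17.1% held this motif. The Wif1 window held 1 match, to TATAAA, a motif found in 12.4% of windows. It lay on the reverse strand near the 5′ end of the window, away from the start, so it is a match of sequence only. ATCAAAG was in 3.21% of windows, TTCNNNNGAA in 5.85% and TTCNNNGAA in 7.02%. The Sfrp2 window lies inside the gene's span in the same annotation, which begins 321 bases before the window, so the start shown is not the only annotated one. GC content was 63.6% in the Sfrp2 window and 62.8% in the Wif1 window, against a median of 52.4% over all windows.

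All 8 listed genes of basal keratinocytes, the cells that define epidermis, were above the filter on every array, with Krt14 between 5886 and 8744. So were all 12 genes of skeletal muscle, Acta1 lying between 11674 and 18494, so every sample held RNA of skeletal muscle. TGF-beta mouse 2 stood apart by its hair follicle genes, described with Wif1, and the values of both mice are therefore given separately. Enzyme genes of the exocrine pancreas, a list of 8 taken from earlier results of these arrays, had a summed signal of 11789 under IL-13, 10603 under TSLP, and 1525 and 8546 in TGF-beta mouse 1 and mouse 2, against 714 in PBS distal and 3609 in PBS local skin. Their part in the differences was not tested.

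Sfrp2 was the member with the largest differences. Its probe set 1448201_at had a signal of 1338 under IL-13, 1889 under TSLP, and 2743 and 1319.7 in TGF-beta mouse 1 and mouse 2, against 239.5 in PBS distal skin and 472 in PBS local skin. Every cytokine array was above both PBS arrays without overlap, as in 7.87% of the 7945 genes that reached the filter, explained below, on any array. Sfrp2 was chosen for being high under the cytokines, so nothing is read from this separation. On the scale of log2(signal + 27.4), in which 27.4 is the 25th percentile of all signals and which understates differences of dim genes, Sfrp2 was higher than in PBS local skin by 1.45 under IL-13 and by 1.94 under TSLP. It was higher by 2.47 in TGF-beta mouse 1 and by 1.43 in mouse 2, with a mean of 1.95 ± 0.74 (SD, n = 2). The IL-13 and TSLP arrays lay between the TGF-beta mice, so the agents were not set apart beyond the spread of the only replicated group. In the order of the 6 arrays, mouse 2 over PBS local was the only step between neighbours that exceeded the gap between the TGF-beta mice, which was -1.04 (mouse 2 minus mouse 1).

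A difference of at least 1 on this scale, for TGF-beta in both mice, was used as a size rule, and a gene was counted if at least 1 compared array reached 165, the median of all signals. Sfrp2 was the only 1 of the 6 genes past it under IL-13, under TSLP and under TGF-beta. By mouse 1 alone only Sfrp2 was past it, as were 0.357% of 7553 genes. By mouse 2 alone 3 of the 6 were past it, as were 1.86% of 7689 genes, and Sfrp1 and Wif1, which stood beside Sfrp2 there, were both below the filter in PBS local skin. These comparisons share the PBS local array. Of all genes, 1.12% were past the rule on the higher side under IL-13 (85 of 7562), 0.998% under TSLP (76 of 7614) and 0.181% under TGF-beta (14 of 7741), and since Sfrp2 was chosen for this pattern nothing is read from the count. Ranked by difference, Sfrp2 stood 41st of 7562 genes under IL-13 and 12th of 7614 under TSLP. Under TGF-beta it stood 33rd of 7741 by the mean of the mice. The ranks use the differences by which Sfrp2 was chosen, so nothing is read from them either. No member was past the rule on the lower side, where the shares of all genes were 0.41% under IL-13, 0.447% under TSLP and 0.155% under TGF-beta, with 0.596% by mouse 1 alone and 1.46% by mouse 2 alone.

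**Figure D1:**
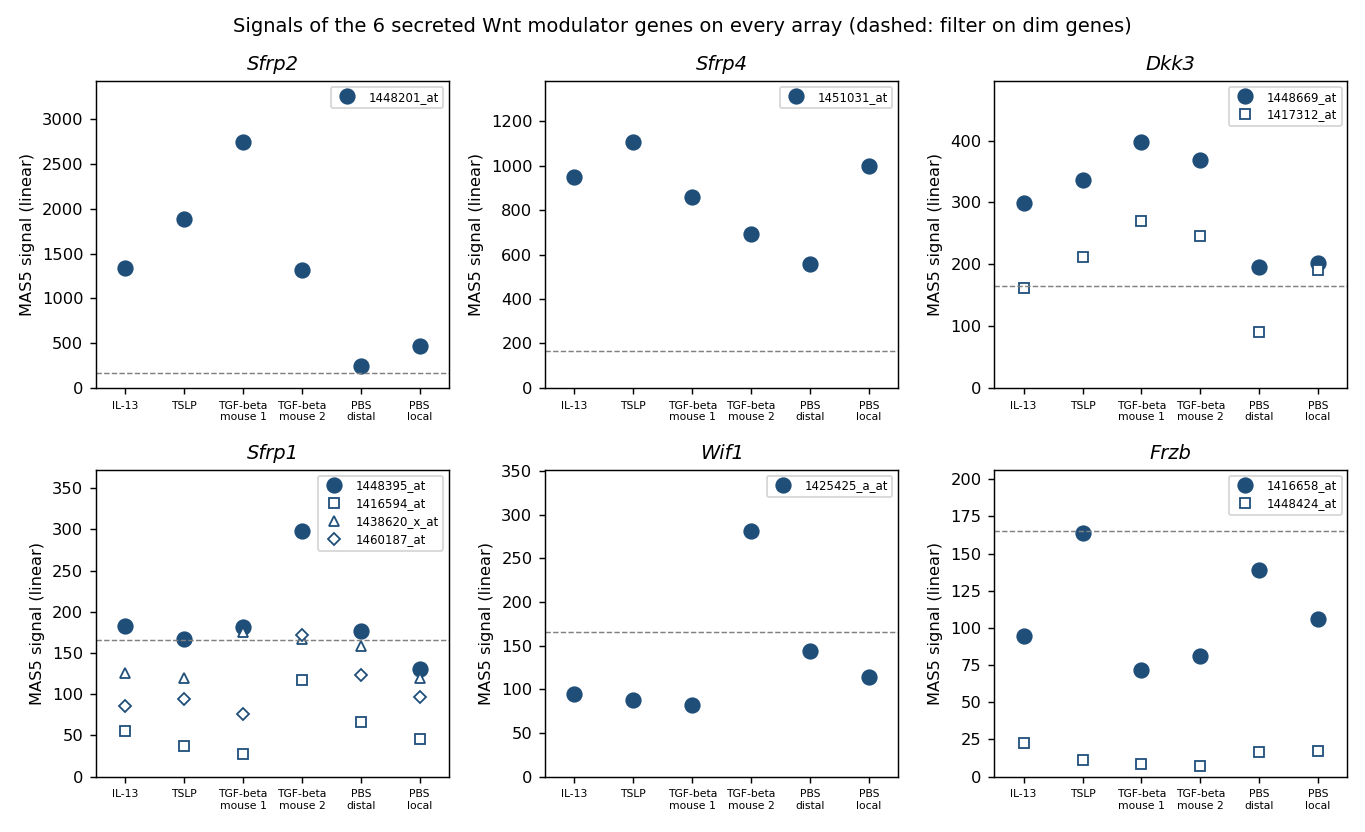
Linear MAS5 signal (y axis) of each probe set of the 6 genes on each array (x axis), with filled symbols for the probe set that stands for the gene, open ones for the others, and a dashed line at the filter of 165. The 4 cytokine arrays of Sfrp2 lie between 1319.7 and 2743, above both PBS arrays, while Frzb stays below the line on every array.

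PBS distal skin had less Sfrp2 than PBS local skin, by -0.90, a difference smaller than the gap between the TGF-beta mice. Set against PBS distal skin, Sfrp2 was higher by 2.35 under IL-13, by 2.84 under TSLP, and by 3.38 and 2.34 in the TGF-beta mice, differences that mix the agent with the pump and the body site. They were past the size rule, as were 4.64% of genes under IL-13, 5.04% under TSLP and 2.57% under TGF-beta. No member was past it on the lower side, where the shares were 2.86% under IL-13, 1.4% under TSLP and 1.22% under TGF-beta. No member was past the rule in PBS distal against PBS local skin, where 0.788% of 7617 genes were higher and 3.51% lower.

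In bulk skin, more cells that express a gene and more RNA per cell cannot be told apart. Values of a list of 12 dermal fibroblast genes therefore stand beside Sfrp2. All 12 passed the filter on every array, and their summed signal was 87391 under IL-13, 71099 under TSLP, and 94821 and 78378 under TGF-beta, against 66036 in PBS distal and 80192 in PBS local skin. Their median difference from PBS local was 0.16 under IL-13, -0.21 under TSLP, and 0.20 and -0.02 in the TGF-beta mice, and 0 of 12 were past the size rule in these comparisons. In PBS distal skin the median was -0.50, with Mfap5 at -1.58 and Pi16 at -1.50, and Sfrp2 lower as well. None of the 12 was at 0, and the part of fibroblast number in the Sfrp2 values was not tested.

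Sfrp4, the relative of Sfrp2 that also showed a signal above the filter on all 6 arrays, had another pattern. Its probe set had 951 under IL-13, 1105 under TSLP, and 861 and 691 under TGF-beta, against 558 in PBS distal skin and 998 in PBS local skin. PBS local skin lay second from the top and PBS distal skin lowest, and the cytokine arrays lay on both sides of PBS local skin. The differences from PBS local were -0.07 under IL-13, 0.14 under TSLP, and -0.21 and -0.51 in the TGF-beta mice, a mean of -0.36 ± 0.22 (SD, n = 2). PBS distal skin differed by -0.81. No step between neighbouring arrays exceeded the gap between the mice, which was -0.31.

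Sfrp1 was dimmer, and its 4 probe sets did not all follow 1 order. The brightest, 1448395_at, had 183 under IL-13, 167 under TSLP, and 181 and 298 in the TGF-beta mice, against 176 in PBS distal and 131 in PBS local skin. It was higher than in PBS local skin by 0.41, 0.30, 0.39 and 1.04 on the cytokine arrays in that order, and by 0.36 in PBS distal skin. PBS distal skin was also above PBS local skin in all 4 probe sets, by 0.29 to 0.37. In TGF-beta mouse 2 all 4 probe sets were above PBS local skin, by 0.40 to 1.04, but in mouse 1 only 2 of 4 were. Under IL-13 3 of 4 were above it and under TSLP 2 of 4. Probe set 1416594_at had 26.9 in mouse 1 and 117 in mouse 2, and 1460187_at had 75.6 and 172, mouse 1 being the lowest and mouse 2 the highest array in each. The fourth, 1438620_x_at, whose suffix marks probes that can bind related transcripts, differed by only -0.07 between the mice (mouse 2 minus mouse 1).

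Frzb was below the filter on all 6 arrays and entered no count. Its brighter probe set had 94.5 under IL-13, 164 under TSLP, and 71.8 and 81.0 under TGF-beta, against 139 in PBS distal skin and 106 in PBS local skin. The TGF-beta mice were the lowest arrays, at -0.43 and -0.30 from PBS local, and TSLP the highest at 0.52. The other probe set, 1448424_at, had 22.3 under IL-13, 11.3 under TSLP, and 8.26 and 7.34 under TGF-beta, against 16.4 in PBS distal and 17.1 in PBS local skin. It also had the TGF-beta mice lowest but IL-13 highest, at signals where the offset outweighs the measurement.

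Dkk3 was the other gene with every cytokine array above both PBS arrays, in 1 of its 2 probe sets. Probe set 1448669_at had 299 under IL-13, 336 under TSLP, and 397 and 369 under TGF-beta, against 195 in PBS distal and 202 in PBS local skin. It was higher than in PBS local skin by 0.51 under IL-13, by 0.67 under TSLP, and by 0.89 and 0.79 in the TGF-beta mice, a mean of 0.84 ± 0.07 (SD, n = 2). The TGF-beta mice differed by -0.10 (mouse 2 minus mouse 1). The steps from TGF-beta to TSLP, from TSLP to IL-13 and from IL-13 to PBS local were each larger than that gap, whereas PBS local and PBS distal skin differed by less. That gap is a single difference between 2 mice, and TSLP, IL-13 and PBS local have 1 array each. These steps therefore do not set the agents apart. In the second probe set, 1417312_at, the signals were 162 under IL-13, 211 under TSLP, and 269.8 and 245 under TGF-beta, against 90.2 in PBS distal and 190.2 in PBS local skin. There IL-13 lay below PBS local skin, by -0.20, TSLP lay at 0.13, the TGF-beta mice at 0.45 and 0.32, and PBS distal skin at -0.89. The probe sets thus placed TGF-beta highest in common, and disagreed on IL-13 against PBS local and on PBS distal against PBS local. All 4 cytokine arrays were above both PBS arrays in 7.87% of the 7945 genes that reached the filter on any array, and below both in 12.8%. Sfrp2 and Dkk3 were above and no member was below.

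**Figure D2:**
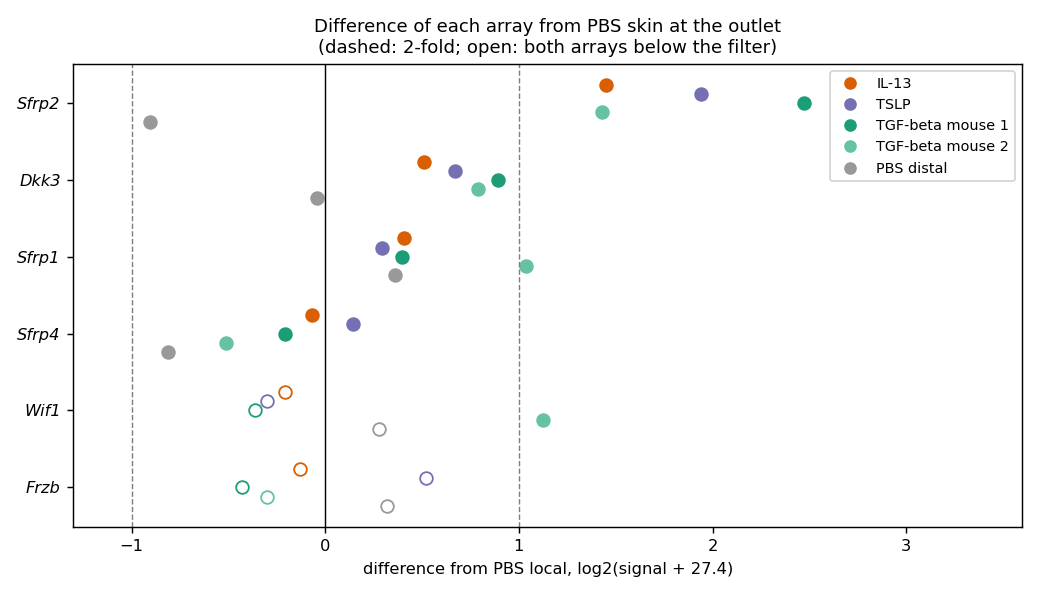
Difference of each array from PBS local skin in log2(signal + 27.4) (x axis) for the probe set that stands for each gene (rows), 1 point per array, with open points where both compared arrays were below the filter and dashed lines at 2-fold. Sfrp2 lies between 1.43 and 2.47 on the cytokine arrays and at -0.90 in PBS distal skin, and Wif1 passes 1 only in TGF-beta mouse 2.

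Wif1 set the TGF-beta mice apart. Its 1 probe set had 94.9 under IL-13, 87.2 under TSLP, 82.3 in TGF-beta mouse 1 and 281 in mouse 2, against 144 in PBS distal and 114 in PBS local skin. Mouse 2 was the only array above the filter, and the gene entered the TGF-beta comparison through it alone. Against PBS local skin the difference was 1.13 in mouse 2 and -0.36 in mouse 1, -0.21 under IL-13, -0.30 under TSLP and 0.28 in PBS distal skin. Mouse 2 exceeded mouse 1 by 1.49, past the size rule, as 1.75% of 7597 genes were, and Sfrp2 was past it on the lower side with 0.698% of genes. No step between neighbouring arrays exceeded that gap between mice.

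Hair follicle genes set the same mouse apart. Of 19 listed genes of the hair shaft and inner root sheath, 16 were on the array and none was at 0. Their summed signal was 3590 under IL-13, 1627 under TSLP, and 1334 and 44884 in TGF-beta mouse 1 and mouse 2, against 3398 in PBS distal and 1442 in PBS local skin. In mouse 2, 15 of the 16 reached the filter, with Krt25, an inner root sheath keratin, at 13132 and Tchh, a protein of the inner root sheath, at 7331. In mouse 1 and in PBS local skin 1 of 16 did, Gata3, a transcription factor that other skin cells also express. Over the 15 genes above the filter on any array, the median difference from PBS local was 5.01 in mouse 2 and 0.22 in mouse 1. It was 1.07 under IL-13, 0.09 under TSLP and 0.62 in PBS distal skin. Of the 15, 14 passed the filter in the TGF-beta comparison only through a TGF-beta array. The array highest in the hair list was thus also highest in Wif1 and in the brightest Sfrp1 probe set. On the IL-13 array, second in the hair list, Wif1 lay below PBS local skin, at -0.21, and that Sfrp1 probe set above it, at 0.41. In PBS distal skin, next in the hair list, both lay above PBS local skin, Wif1 at 0.28 and that Sfrp1 probe set at 0.36. Pearson's r with the mean log2 value of the 16 genes was 0.91 for Wif1 and 0.93 for Sfrp1 over the 6 arrays, and 0.41 and 0.58 over the 5 arrays without mouse 2, given as a description of arrays on a common scale. The part of hair follicle content in the Wif1 and Sfrp1 values was not tested. Sfrp2 went the other way, being lower in mouse 2 than in mouse 1.

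**Figure D3:**
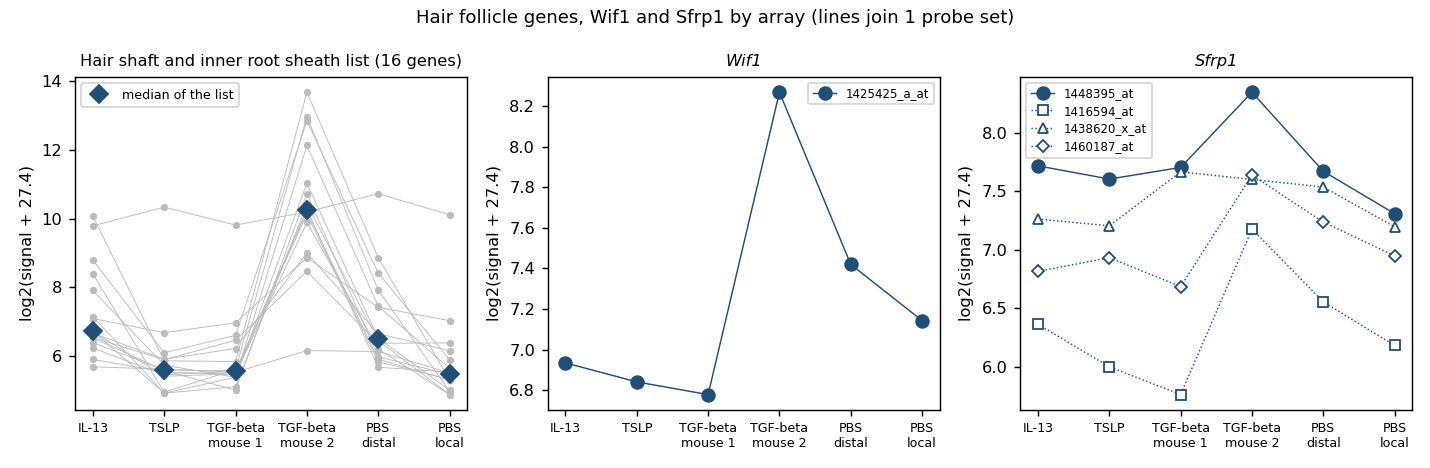
Values in log2(signal + 27.4) (y axes) on each array (x axes) for the 16 hair shaft and inner root sheath genes (left, grey, with the list median as a diamond), Wif1 (middle) and the 4 Sfrp1 probe sets (right), lines joining the points of 1 probe set. TGF-beta mouse 2 is the highest array in the list median and for Wif1, and for 3 of the 4 Sfrp1 probe sets.

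The other genes of the pathway were described from lists of Wnt ligands, receptors, further extracellular modulators, intracellular signalling genes and target genes of beta-catenin. TGF-beta was tested against PBS local skin with limma, with the spread taken from the 2 TGF-beta mice and the single PBS array assumed to vary like them. With Benjamini-Hochberg adjustment, limma called 0 of 7741 genes (0% higher and 0% lower, smallest adjusted p 0.864), and 355 genes had an unadjusted p under 0.05. So no gene of any of these lists passed the test. In the same fit, added after the data were seen and with both single arrays assumed to vary like the TGF-beta mice, limma called 0 of 7562 genes for IL-13 and 0 of 7614 for TSLP against PBS local skin (0% higher and 0% lower in both). Their smallest adjusted p was 0.432 and 0.545, and 292 and 304 genes had an unadjusted p under 0.05. For PBS distal skin limma called 0% higher and 0.0263% lower, the 2 genes being Ankrd1 and Saa3 (smallest adjusted p 0.0469), which are in none of the Wnt lists. At an unadjusted p under 0.05 the shares of all genes were 1.85% higher and 2.01% lower for IL-13, 2.39% and 1.6% for TSLP, and 3.47% and 7.44% for PBS distal skin. The Wnt list genes among them were Tpbg (higher) and Tle4 (lower) for IL-13, none for TSLP, and Dkkl1 and Tnfrsf19 (both higher) for PBS distal skin. At an unadjusted p under 0.05, limma had for TGF-beta 0 of 5 ligands, 0 of 9 receptors and co-receptors, 2 of 12 further extracellular modulators (Lgr5 and Gpc3, both on the higher side), 1 of 17 intracellular genes (Tle4, on the lower side) and 2 of 13 target genes (Ccn4 and Lgr5, both on the higher side). Over all genes those shares were 2.02% higher and 2.57% lower.

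Of the ligands, Wnt2, a canonical ligand, was past the size rule under IL-13 and TSLP. Its signal was 291 under IL-13, 243 under TSLP, and 158 and 60.5 under TGF-beta, against 28.5 in PBS distal and 78.0 in PBS local skin. It was higher than in PBS local skin by 1.59 under IL-13 and by 1.36 under TSLP. Of the 4 ligands that passed the filter in each of these comparisons, no other was past the rule, and Wnt2 passed it only through the cytokine array, being below it in PBS local skin. In the TGF-beta mice Wnt2 lay at 0.82 and -0.26, below the filter. Wnt5a, a ligand of the branch that does not work through beta-catenin, had 442 in TGF-beta mouse 2, against 156 in mouse 1 and 139 in PBS local skin. The ligands that passed the filter had medians of -0.37 under IL-13 (4 genes), -0.17 under TSLP (4 genes) and -0.34 under TGF-beta (5 genes), with all tested genes at -0.07, -0.01 and -0.05. The TGF-beta mice differed in sign, the same 5 ligands having a median of -0.47 in mouse 1 and 0.05 in mouse 2. Of these 5, Wnt5a and Wnt11 passed the filter only through a TGF-beta array, so nothing is read from the sign. In PBS local skin 3 passed it, Wnt4, Wnt7b and Wnt10a. They lay at -0.64, -0.47 and -0.73 in mouse 1, and at -0.20, -0.93 and 0.05 in mouse 2. In PBS distal skin 4 ligands passed the filter, Wnt5a only through the PBS distal array. All 4 lay above PBS local skin, with a median of 0.48, against -0.01 for all tested genes.

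Receptors and co-receptors differed little. None was past the size rule in any of these comparisons, and their medians were 0.08 under IL-13 (7 genes), -0.03 under TSLP (8 genes) and 0.35 under TGF-beta (9 genes). By mouse the median of these 9 was 0.12 in mouse 1 and 0.46 in mouse 2. The largest differences were those of Lrp4 under IL-13 (-0.44), of the co-receptor Lrp6 under TSLP (0.34) and of Ptk7 under TGF-beta (0.40 in mouse 1 and 0.88 in mouse 2). Ptk7 and Ror2, 2 of the 9 genes, passed the filter under TGF-beta only through a TGF-beta array. Nothing is therefore read from the medians of the 9 or from Ptk7. Under TSLP, Ptk7 passed the filter only through the TSLP array. In PBS distal skin the median of 8 genes was 0.41, with 6 above PBS local skin and all tested genes at -0.01. There Ptk7 passed the filter only through the PBS distal array.

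Among the other extracellular modulators, Lgr5, a receptor of R-spondins and a marker of hair follicle stem cells, was the 1 of 12 genes past the size rule under TGF-beta. It had 377 and 574 in the TGF-beta mice, against 174 in PBS local skin, with differences of 1.01 and 1.58, and had 267 under IL-13, 235 under TSLP and 320 in PBS distal skin. Lgr5 was above PBS local skin on all 5 other arrays, PBS distal skin included. The glypican gene Gpc3 lay at 0.67 under IL-13, 0.41 under TSLP, and 0.49 and 0.92 under TGF-beta. In PBS distal skin Sostdc1, an antagonist of BMP and Wnt signalling, was higher by 1.12 and Dkkl1 by 1.08. Sostdc1 was also higher in TGF-beta mouse 2, by 1.05, but lay at 0.05 in mouse 1. Dkkl1 lay at -0.22 in mouse 1 and -0.77 in mouse 2. The list had 0 of 11 genes past the rule under IL-13 and 0 of 11 under TSLP. Under TGF-beta the median of its 12 genes was 0.03 in mouse 1 and 0.58 in mouse 2. Of the 12, Porcn passed the filter only through a TGF-beta array.

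The intracellular genes, among them Ctnnb1, which encodes beta-catenin, and Apc, Axin1 and Gsk3b of its destruction complex, had 0 of 17 past the size rule in every comparison with PBS local skin, with medians of 0.05 under IL-13, -0.04 under TSLP and 0.08 under TGF-beta (-0.02 in mouse 1 and 0.07 in mouse 2). Tle4, a corepressor, had the largest difference under TGF-beta and IL-13, at -0.62 and -0.69 in the TGF-beta mice and -0.62 under IL-13, and under TSLP that gene was Apc, at 0.46.

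Of the target genes of beta-catenin, 3 of 13 were on the higher side of the size rule under TGF-beta, where 0.181% of all genes were, against 0 of 10 under IL-13 and 0 of 10 under TSLP. The median of these 13 was -0.06 in mouse 1 and 0.72 in mouse 2. Of the 13, Ccn4, Bambi, Msx2 and Nkd2 passed the filter only through a TGF-beta array. Of the 9 that passed it in PBS local skin 1 was past the rule, so nothing is read from the count or the medians. The 3 were Ccn4, a matricellular protein (1.64 and 1.14 in mouse 1 and mouse 2), Bambi, a decoy receptor for TGF-beta family ligands (1.07 and 2.41), and Lgr5. Axin2, a widely used reporter of the canonical branch, had 166 under IL-13, 208 under TSLP, and 191 and 247 under TGF-beta, against 301 in PBS distal and 265 in PBS local skin. Every cytokine array was thus below both PBS arrays in Axin2, at -0.60, -0.31, -0.42 and -0.09 from PBS local, as were 12.8% of genes. Axin2 was singled out after its values were seen. Msx2, also a gene of the hair matrix, lay at 0.06 in mouse 1 and 2.85 in mouse 2.

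**Figure D4:**
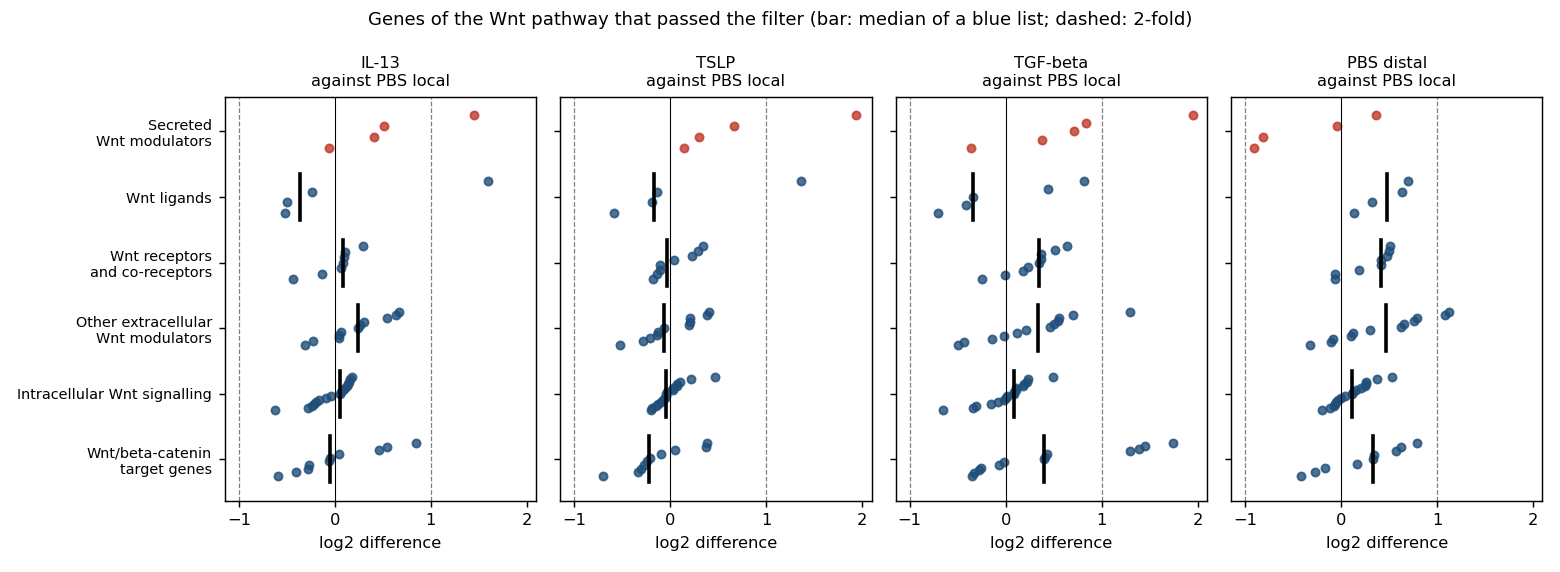
Difference from PBS local skin in log2(signal + 27.4) (x axes) of the genes that passed the filter, 1 point per gene, in the 6 genes described here (red) and the 5 Wnt pathway lists (blue, rows), with a panel for each comparison, vertical bars at the medians of the blue lists and dashed lines at 2-fold; TGF-beta points are means of both mice. Under IL-13 and TSLP, Sfrp2 and Wnt2 are the only points past 1.

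The genes most like each member over the 6 arrays were sought by Pearson's r of the log2 values among genes that reached the filter and spanned at least 1 unit (1214 candidates). These coefficients describe 6 arrays on a common scale, and with so many candidates high ones were to be found. Nearest to Sfrp2 were the transcription factor genes Ebf3 (r = 0.99) and Zfp521 (r = 0.99) and the immunoglobulin superfamily gene Cd276 (r = 0.97). Without the 2 arrays farthest from the median of Sfrp2, both PBS arrays, r was 0.98, 0.99 and 0.95 over 4 arrays. Ebf3 had 169 under IL-13, 197 under TSLP, and 248 and 153 under TGF-beta, against 81.0 in PBS distal and 99.9 in PBS local skin.

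Nearest to Dkk3 were the matrix protease gene Mmp3 (r = 0.99), the lysosomal enzyme gene Naglu (r = 0.95) and Sfrp2 itself (r = 0.95), and without both PBS arrays r was 0.92, 0.45 and 0.64 over 4 arrays. Dkk3 spanned only 299 to 397 over those 4 arrays, so the lower r does not show what its likeness to Naglu and Sfrp2 rested on. Over the 5 arrays without TGF-beta mouse 2, r was 0.98 for Mmp3, 0.96 for Naglu and 0.98 for Sfrp2. Nearest to Wif1 were Krt75, a keratin of the hair follicle companion layer (r = 0.999), Nkd2, an intracellular Wnt antagonist (r = 0.98), and Bdh1 (r = 0.98), and without TGF-beta mouse 2 and PBS distal r was 0.99, 0.67 and 0.89. Krt75 had 352 under IL-13, 291 under TSLP, 267 in TGF-beta mouse 1 and 1660 in mouse 2, against 623 in PBS distal and 439.6 in PBS local skin. Nearest to Sfrp1 were the pigment genes Tyrp1, Dct and Pmel (r = 0.98, 0.97 and 0.97), which without TGF-beta mouse 2 and PBS local had r of 0.89, 0.77 and 0.97. Nearest to Sfrp4 were Sod3, Adgre5 and Thbs3 (r = 0.99, 0.99 and 0.98), and nearest to Frzb were Rabggta, Neu2 and Fasn (r = 0.95, 0.94 and 0.94). Without the 2 farthest arrays r was between 0.87 and 0.94 for Sfrp4 and between 0.78 and 0.89 for Frzb.

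**Figure D5:**
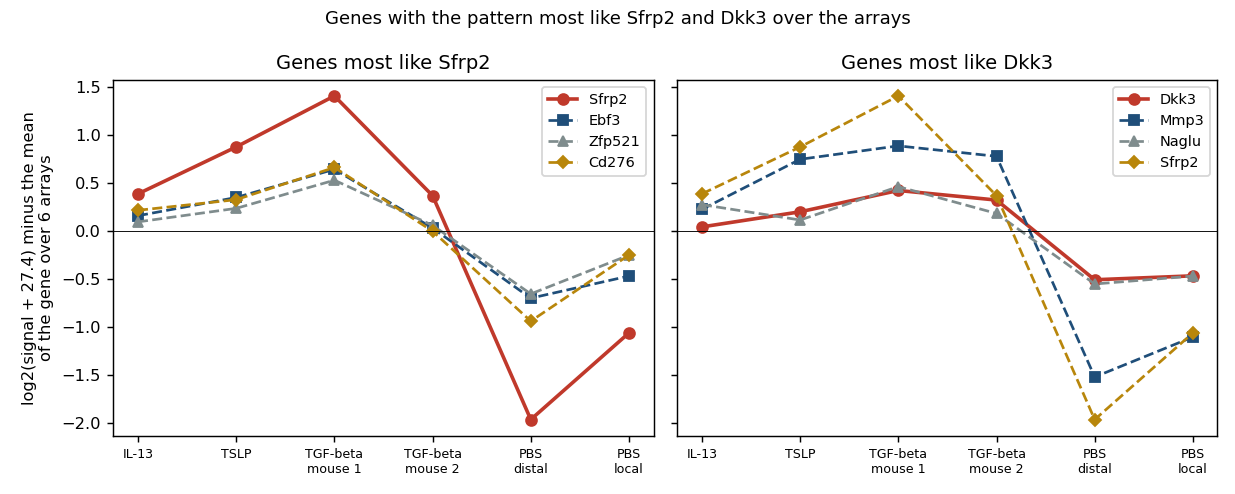
Values in log2(signal + 27.4) minus each gene's mean over the 6 arrays (y axis) for Sfrp2 (left, red) and Dkk3 (right, red) with the 3 genes whose pattern was most like it (dashed), by array (x axis); lines join the points of 1 gene and the arrays have no order. Both PBS arrays lie below 0 for every gene shown.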

How the data were processed

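Total RNA of 6 skin samples was labelled with biotin and hybridised to single-colour Affymetrix arrays. Each probe set has 1 linear intensity on each array in the deposited table, made by the authors with MAS5 per the submitters' processing notes; the MAS5 version and a genome build are not given in the sources used here. Trimmed means (2% left out at each end) lay between 500.16 and 500.2, so the arrays had been brought to 1 scale. Array medians were 160.2 to 171, and Actb control probe sets had 3' over 5' ratios of 1.13 to 1.25.

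Arrays were rescaled to a common trimmed mean and taken as log2(signal + 27.4). Of 22690 probe sets, 20380 name 1 gene in the platform annotation, and 20351 of these were matched by gene number to RefSeq symbols (GRCm38.p6). A gene was represented by its probe set of highest mean log2 value. A gene entered a comparison if 1 compared array reached 165.

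TGF-beta was tested against PBS local with limma 3.58.1 (R 4.3.3), with all 6 arrays in 5 groups, an intensity trend and Benjamini-Hochberg adjustment at 0.05, which left 1 residual degree of freedom. The p-values rest on the spread between 2 mice. Differences of the single arrays were described by size; the same fit was added for them after the data were seen, with no array of their own groups to give a spread. Precision is limited by how few arrays there are.

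The genes and all lists were chosen with earlier results of these data known. Genes named in the text are the 6 members, the list genes past the size rule or else with the largest differences, and the 3 genes most like each member; others serve as values beside a result. Alternatives were smaller and larger offsets, no filter, the mean of all probe sets, quantile normalization, leaving out either TGF-beta mouse and, for limma, no trend.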

Additional observations from a re-analysis of the deposited data

How the results depend on the processing

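No paired analysis was possible because the labels number only the TGF-beta mice and every other group has 1 array. Sfrp2 kept its direction and its side of the size rule against PBS local under every alternative run, with differences of 1.40 to 1.50 under IL-13, 1.88 to 1.98 under TSLP and 1.43 to 2.47 under TGF-beta, and -0.94 to -0.84 in PBS distal skin. For TGF-beta limma called 0 genes at all 7 settings, with a smallest adjusted p of 0.102 after quantile normalization. The limma fits added after seeing the data called, after quantile normalization, 3 genes for IL-13, 7 for TSLP and 120 for PBS distal skin. For PBS distal skin they called 2 genes as first run and 0 with an offset of 54.8, without the filter, with the mean of all probe sets and with no trend. Without TGF-beta mouse 1 the number of members at least 2-fold higher was 3 (Sfrp1, Sfrp2 and Wif1), beside 143 of 7689 genes (1.86%). Without mouse 2 it was 1, beside 27 of 7553 genes (0.357%). On the lower side were 112 genes (1.46%) without mouse 1 and 45 (0.596%) without mouse 2. Under TGF-beta genes past the size rule numbered 22 higher with an offset of 13.7, and 7 higher and 7 lower with one of 54.8. Without the filter on dim genes, 131 genes were higher under IL-13, 101 were higher in PBS distal skin, and 940 had all 4 cytokine arrays above both PBS arrays (a description added after seeing the data). With the mean of all probe sets, Dkk3 lay at 0.15 under IL-13, 0.40 under TSLP, 0.61 under TGF-beta and -0.46 in PBS distal skin, its probe sets disagreeing as described, and Frzb was at 0.01 under IL-13, 0.16 under TSLP and 0.15 in PBS distal skin. Sfrp1 then lay at 0.13 under IL-13, 0.03 under TSLP and 0.41 under TGF-beta. Signals near or below the filter, those of Frzb, Wif1 and most Sfrp1 probe sets, limit what can be read from small differences.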
